A study of Mus musculus with 8 samples.

Results

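The last stretch of an LPS time course in RAW264.7 cells, from 3 h to 5 h, was followed in 4 of 8 expression arrays. RAW264.7 is a virus-transformed mouse macrophage line, and LPS is the Gram-negative cell wall component that macrophages detect through Toll-like receptor 4. The 4 arrays were the 3 h and 5 h cultures of each arm, chosen by the sample titles. In the arm without melatonin, cells received only LPS (Escherichia coli O55:B5, 100 ng/ml). In the melatonin arm, cells first received 1 mM melatonin for 1 h. The other 4 arrays, at 0 h and 1 h of both arms, served to estimate the spread and the level without LPS. Each condition was 1 culture of 1 line on 1 array. The questions were which transcripts still climbed after 3 h, which levelled off or decayed, and whether the arms drew together.

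LPS signalling starts a wave of transcripts. Immediate early factors and feedback inhibitors come first and are soon degraded, cytokines and chemokines follow, and interferon-β made by the cells then acts back on them through JAK-STAT signalling and the factor ISGF3 to raise antiviral genes. Late in the response, macrophages also change amino acid, lipid and cell cycle programmes. The step from 3 h to 5 h is a late part of this sequence. The antiviral gene Rsad2, for instance, had gone from 0.42 and -0.1 at 1 h to 7.12 and 4.74 at 3 h, without and with melatonin.

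Values are log2 signals minus the 75th percentile of the array, so a level of 0 lies at that percentile. The step is the log2 level at 5 h minus that at 3 h, averaged over both arms, with its standard error (SE) from a limma model with LPS time and melatonin as terms. Over the 20076 genes tested its median was 0.02. The RNA was bulk, so fewer cells of a kind and less RNA per cell cannot be told apart. Replicate cultures are lacking, so a gene's own spread is how far the difference between its arms changed over the 4 LPS times. To this limma adds a prior, the spread of other genes of like intensity. The gene's own spread counts with 3 degrees of freedom and the prior with 2.86. The SE and p-value that result measure no scatter between cultures. A gene whose LPS response differed between the arms has a larger SE and is harder to call. Each LPS time had its own column on the slide and no LPS-free culture of equal age, so LPS time, slide column and culture age cannot be told apart. The treatment field of the labels gives LPS times later than the titles for the melatonin arm: the culture titled 3 h reads 5 h there, and that titled 5 h has no entry. Across genes, which are not replicates, the 3 h array without melatonin correlated at r = 0.9755 with the melatonin array titled 3 h. It correlated at 0.9511 with that titled 1 h, which reads 3 h in the field, and at 0.9779 with that titled 5 h. The 5 h array without melatonin correlated at 0.9779 with the melatonin array titled 5 h. With that titled 3 h, which reads 5 h in the field, its r was 0.9693. Values under the times of that field are given where they end a result. The comparison of the arms within a time rests on the titles. The 9 macrophage markers checked (among them Adgre1, Csf1r, Cd68 and Lyz2) were above background on all 4 arrays, with a log2 summed signal of 10.08 and 9.65 at 3 h and 9.92 and 9.64 at 5 h, without and with melatonin. Of other cell types, 2 of 7 lymphocyte markers (Cd3e and Cd4), 1 of 5 granulocyte or mast cell markers (Elane) and 2 of 8 fibroblast, epithelial or endothelial markers (Col1a2 and Pecam1) were above background on all 4 arrays.

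In the step as a whole, 19 of the 20076 genes were called by limma at an adjusted p under 0.05 (0.0946%), 7 up (0.0349%) and 12 down (0.0598%). All 19 moved the same way in both arms, which a test of the mean over arms favours, and 16 were above background on all 4 arrays. At an unadjusted p under 0.05 there were 2937 genes (14.6%), 1466 upward and 1471 downward, where chance gives 1004. The calls rest on few arrays. With any 1 of 7 arrays left out, 0 genes were called up and 1 down, and without the 5 h melatonin array 6 were called up and 15 down. None was called with the times of the treatment field (1015 genes at an unadjusted p under 0.05). Fitted on the 4 arrays at 3 h and 5 h alone, 124 were called up and 124 down. Of the 17 named calls described next, 16 lost the call without any 1 of those 7 arrays and 15 without the 5 h melatonin array, and all 17 kept their sign in every setting in which they were measured.

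The deepest fall was that of Ranbp3l, a Ran-binding protein linked to nuclear export. It stood at 0.95 and 0.97 at 3 h (without and with melatonin) and at -2.81 and -2.56 at 5 h. Both 5 h arrays were far below both 3 h arrays, and the arms nearly coincided. The step was -3.65 (SE 0.09, limma adjusted p = 0.000553), or 12.5-fold lower, and Ranbp3l was the gene called with any array left out. Its level before LPS was 4.01 and 4.11, so the fall continued from 0 h onward. Its probe lies on mm9 chromosome 15, 8996153 to 8996212.

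The other genes that fell had varied roles. Cldn11, a tight junction claudin, went from 3.40 and 2.96 to 1.46 and 1.37 (step -1.76, SE 0.11, limma adjusted p = 0.0176). Ndrg4, of the N-myc downstream-regulated family, went from -0.84 and -1.03 to -2.86 and -2.85 (step -1.91, SE 0.11, limma adjusted p = 0.0176). Tfdp2, the dimerisation partner of E2F factors, went from -0.52 and 0.48 to -2.15 and -1.35 (step -1.73, SE 0.15, limma adjusted p = 0.0432). In each of the 3, both 5 h arrays were below both 3 h arrays. Cd101, an immunoglobulin-like leukocyte surface protein that 1 of 2 arrays at 5 h showed above background, fell by 1.47, and Agmo, which cleaves ether lipids, fell by 1.14. H2ac23, a replication histone, fell by 0.90, Tns3, a focal adhesion tensin, fell by 0.89, and Ctsh, the lysosomal protease cathepsin H, fell by 0.68 (limma adjusted p between 0.0176 and 0.0432 for these 5 genes). Ttc39a and the myosin gene Myh7b were not well above background at 5 h on either array and were at least 1.15-fold and 2.13-fold lower there than at 3 h (limma adjusted p = 0.0418 and 0.0432). For Ctsh and Tns3, 1 of 4 probes each differed from the others: its step without melatonin was 0.08 for Ctsh and 1.06 for Tns3.

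The genes that rose include the metabolic enzymes Cth and Urah. Cth, the lyase that makes cysteine from cystathionine, stood at -1.73 and -0.39 at 3 h and at 0.00 and 1.10 at 5 h. Both 5 h values exceeded both 3 h values, and the melatonin arm was the higher at each time. The step was 1.61 (SE 0.14, limma adjusted p = 0.0432), and the probe lies on mm9 chromosome 3, 157557667 to 157557726. Urah, a hydrolase of urate breakdown, went from 2.86 and 2.25 to 4.39 and 4.01 (step 1.64, SE 0.10, limma adjusted p = 0.0176) after a level of -3.82 and -4.26 before LPS. Urah thus kept climbing in both arms at every time sampled.

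Arl11, a small GTPase of the ARF-like family, went from -3.18 and -3.56 to -1.60 and -1.85 (step 1.64, SE 0.13, limma adjusted p = 0.0418). It had stood at -1.80 and -2.01 before LPS, so both arms dipped with LPS and then came back near that level. Ptgir, the prostacyclin receptor, went from 1.10 and 0.90 to 2.51 and 1.96 (step 1.24, SE 0.11, limma adjusted p = 0.0432). Slc6a9, a glycine transporter, rose by 1.08 and Sars, the seryl-tRNA synthetase, by 0.68 (limma adjusted p = 0.0432 and 0.0337). The 2 other calls are the transcripts I830077J02Rik (up by 1.40) and 2210408F21Rik (down by 1.52).

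**Figure D1:**
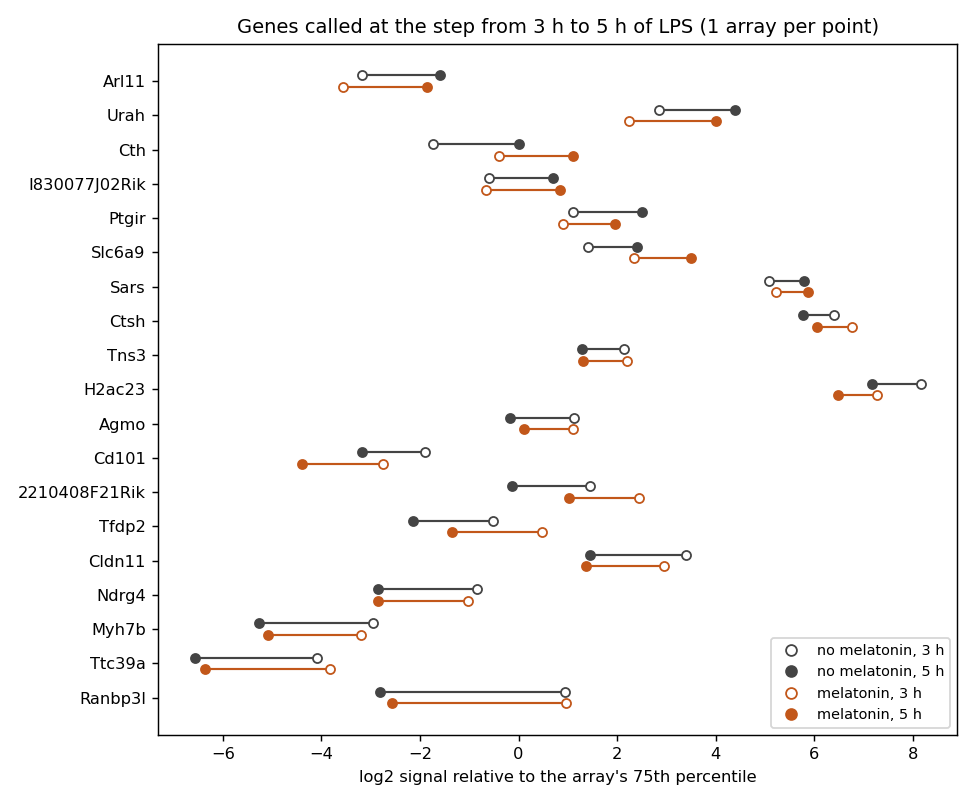
Log2 signal relative to the array's 75th percentile (x axis) for each of the 19 genes called at the step (y axis); open points are 3 h arrays and filled points 5 h arrays, dark grey without and orange with melatonin, 1 array per point. Lines join the times of an arm; 7 genes rose and 12 fell in both arms, Ranbp3l the furthest at -3.65.

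Few inflammatory genes passed the test, which disfavours genes whose arms differ over time. A description by size was therefore added after the calls had been seen. A gene was counted as climbing or decaying if its level moved at least 0.5 log2 in the same direction in both arms. By that count 465 genes went up (2.32%) and 606 went down (3.02%). At 1 log2 or more the counts were 65 up (0.324%) and 95 down (0.473%). These counts carry no test. With the normexp background they were 226 and 239 at 0.5 log2, and with no filter on dim probes 887 and 953.

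The climbers by size included cytokines and acute-phase products. Lcn2, the iron-sequestering lipocalin, stood at 3.20 and 0.75 at 3 h and at 5.29 and 4.47 at 5 h, with both 5 h arrays above both 3 h arrays (2.91, SE 0.47, limma adjusted p = 0.0997). Il6, a cytokine of fever and the acute phase, stood at 5.83 and 1.58 and then at 7.10 and 3.89. Each arm was higher at 5 h, but the 5 h melatonin array stayed below the 3 h array without melatonin (1.79, SE 1.05, limma adjusted p = 0.474). Ccl2, the monocyte-attracting chemokine, had 6.33 and 3.29 and then 7.51 and 5.15, with the same overlap (1.52, SE 0.26, limma adjusted p = 0.106). Ptgs2, the inducible cyclooxygenase, had steps of 0.84 without and 1.16 with melatonin. In the fit on the 4 arrays alone, Lcn2, Il6, Ccl2 and Ptgs2 were called (limma adjusted p = 0.0343, 0.0383, 0.0316 and 0.0293). That fit leaves fewer residual degrees of freedom than the main one. In it 10 named genes gained a call and 2 lost theirs. The gains were not confined to such climbers: they included Dusp1 and Tnfaip3, which went down in both arms, and Fos and Trib3, which went up.

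Of 20 proinflammatory cytokines measured, 0 were called at the step. At an unadjusted p under 0.05 were 2 upward and 1 downward, beside 1466 and 1471 of all 20076 genes. By size, 8 climbed (40%, beside 2.32% of all genes) and 1 decayed (5%, beside 3.02%) in both arms. The median step was 0.26 beside 0.02 over all genes, with 0.10 without and 0.70 with melatonin. It rested on single arrays: without the 3 h array of the arm lacking melatonin it was 0.88, without the 3 h melatonin array 0.03, without the 5 h melatonin array 0.57, and with the times of the treatment field 1.15. Csf3, the granulocyte growth factor, had steps of 1.80 and 2.31 (without and with melatonin), Il1a 1.07 and 2.27, and Osm, an IL-6 family cytokine, 1.17 and 2.08. The decaying member was the costimulatory ligand Tnfsf9, at -0.62 and -0.52. Tnf, the early cytokine, was at 8.48 and 7.40 at 3 h and at 8.13 and 7.42 at 5 h, and Ifnb1, which encodes interferon-β, at 3.15 and -0.21 and then at 2.44 and -0.20.

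Among 14 chemokines none was called (3 had an unadjusted p under 0.05, all upward), and the median step was 0.55. By size, 3 climbed (21.4%, beside 2.32% of all genes) and none decayed (3.02% of all genes). Ccl7 and Ccl9 were the climbers beside Ccl2, with steps of 1.68 and 1.99 for Ccl7, which attracts monocytes, and of 0.67 and 1.15 for Ccl9. The abundant Ccl4 stayed at 9.14 and 8.55 and then 9.05 and 8.69, and Cxcl10, an interferon-responsive attractant of T cells, was at 8.70 and 7.42 and then 8.0 and 7.38. Of 21 genes for nitric oxide, prostaglandin, itaconate and acute-phase products, 0 were called (6 upward and 2 downward at an unadjusted p under 0.05). By size, 7 climbed (33.3%, beside 2.32% of all genes) and 2 decayed (9.52%, beside 3.02%). The decaying members were Hp, haptoglobin (-1.28 and -0.66), and Ptgs1, the constitutive cyclooxygenase, at least 1.65-fold lower at 5 h. Nos2, the inducible nitric oxide synthase, had steps of 0.46 and 0.78, and Acod1, which makes itaconate, 0.01 and 0.13.

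**Figure D2:**
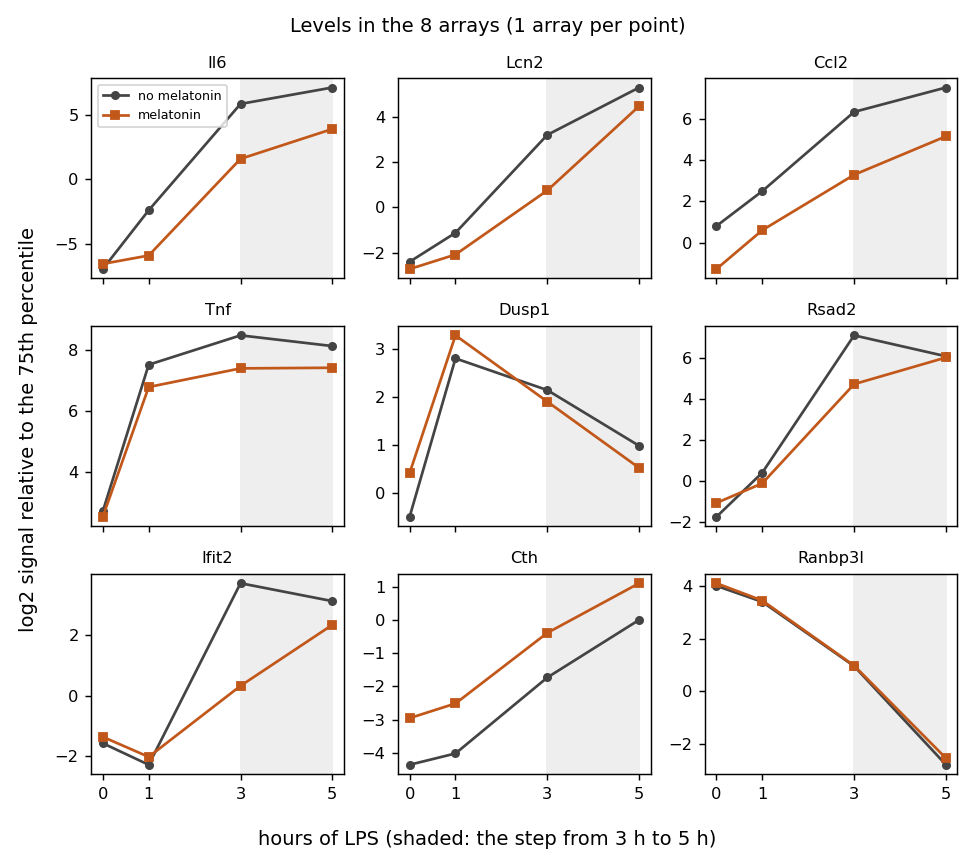
Log2 signal relative to the array's 75th percentile (y axis) against hours of LPS (x axis) for 9 genes, dark circles without and orange squares with melatonin, 1 array per point; the step from 3 h to 5 h is shaded. Il6, Lcn2, Ccl2 and Cth were higher at 5 h than at 3 h in both arms, Dusp1 and Ranbp3l lower, Tnf moved little, and for Rsad2 and Ifit2 the arms moved in opposite directions.

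Immediate early factors, transcribed first after a stimulus, did not move together. None of the 23 was called (2 upward and 4 downward at an unadjusted p under 0.05), and the median step was 0.10. By size, 3 climbed (13%, beside 2.32% of all genes) and 3 decayed (13%, beside 3.02%). The orphan receptor Nr4a1 stood at 2.19 and -0.47 and then at 4.43 and 1.75, and the AP-1 subunits Fos and Jun had steps of 1.41 and 1.21, and of 1.15 and 0.85. For Fos the direction turned with the times of the treatment field (-2.14). The zinc finger factors Egr2 (-1.79 and -0.88) and Egr3 (-0.62 and -1.93) and the nuclear factor Csrnp1 (-1.01 and -1.12) went down in both arms. Among 18 genes of mRNA decay and MAP kinase phosphatases, none was called (3 upward and 3 downward at an unadjusted p under 0.05). Dusp1, the phosphatase that turns off p38 and JNK, stood at 2.14 and 1.90 at 3 h and at 0.98 and 0.52 at 5 h. Both 5 h arrays were below both 3 h arrays (-1.27, SE 0.33, limma adjusted p = 0.191). Dusp6, which acts on ERK, went the other way, with 0.13 and 0.07 and then 1.22 and 1.43. Zfp36, which speeds the decay of cytokine mRNAs, had steps of 0.80 and 0.87, and its relative Zc3h12c -0.97 and -0.65.

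The response classes describe how far genes had levelled off. A gene was taken as raised or lowered when the mean of its 3 h and 5 h levels differed from 0 h (limma adjusted p under 0.05) by at least 1 log2. That difference is uncorrelated with the step, but this call and the plateau interval defined below share each gene's spread. The choice gave 1277 raised genes (6.36%) and 1603 lowered genes (7.98%). Of the raised genes, 2 were called up at the step (Urah and Cth), 0 were called down (84 had an unadjusted p under 0.05 downward), 642 were at a plateau (50.3%) and 633 were undetermined. A plateau means that the step was not called and its 95% interval lay within 1 log2 of 0. Of the lowered genes, 0 were called up (69 had an unadjusted p under 0.05 upward), 11 were called down, 748 were at a plateau (46.7%) and 844 were undetermined. Of all genes, 79.1% were at a plateau, a larger share than in either class. With an interval of 0.5 log2 the plateau held 162 raised and 92 lowered genes. Without the 3 h array of the arm lacking melatonin it held 483 lowered genes, and with the times of the treatment field no gene entered either class.

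By size, more of the raised genes climbed than decayed, and more of the lowered genes decayed than climbed. Of the raised, 164 climbed (12.8%) and 68 decayed (5.32%) in both arms, with a median step of 0.17. Of the lowered, 45 climbed (2.81%) and 284 decayed (17.7%), with a median step of -0.25. The 336 genes called raised at 1 h (1.67%), a contrast that holds no 3 h or 5 h level, had other counts: 14 climbed (4.17%), 36 decayed (10.7%), and the median step was -0.09. Of the raised genes, 602 had their highest level at 5 h in both arms and 258 at 3 h in both arms, and 222 peaked at 3 h without and at 5 h with melatonin against 81 the other way round. These differences between classes were not tested.

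Raised genes at a plateau included Ccl5, a T cell and monocyte attractant (8.21 and 7.83, then 8.65 and 8.34). The step of Ccl5 was 0.48, with a 95% interval of 0.22 to 0.74 that lay above 0 (limma adjusted p = 0.145), and it was called in the fit on the 4 arrays alone (limma adjusted p = 0.0316), so a plateau here bounds the step and does not mean that there was none. Another raised gene in this class was Nfkbia, the inhibitor of NF-κB (8.27 and 7.86, then 8.33 and 7.97). Plaur, the urokinase receptor, had steps of 0.28 and 0.21, and Phlda1 0.08 and 0.41. Lowered genes at a plateau included Abcg1, a cholesterol exporter (-1.28 and 0.53, then -0.95 and 0.26), Klf10, a zinc finger repressor (-2.80 and -2.18, then -3.31 and -2.57), and Rarb, a retinoic acid receptor (-0.12 and 0.72), whose step turned to -1.77 with the times of the treatment field. Trp53inp1, a p53-inducible stress protein, was above background with melatonin only, at -1.63 and -1.92. Among NF-κB subunits and feedback genes, 14 of 18 were at a plateau (77.8%), a share near the 79.1% of all genes. None of the 18 was called, and 3 had an unadjusted p under 0.05 downward and 0 upward. By size 2 decayed (11.1%, beside 3.02% of all genes) and 0 climbed. Tnfaip3 was among those that decayed, with steps of -1.12 and -0.65 (limma adjusted p = 0.361).

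**Figure D3:**
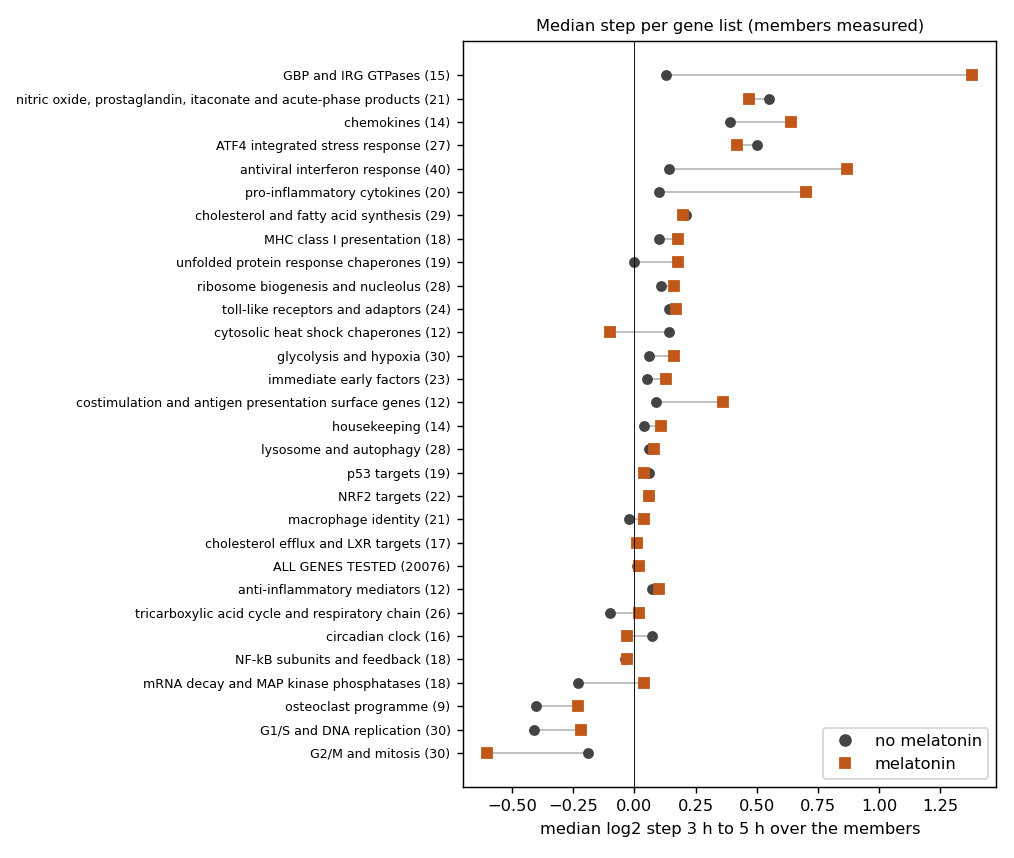
Median log2 step from 3 h to 5 h (x axis) of each gene list with at least 5 measured members (y axis, number measured in brackets), dark circles without and orange squares with melatonin. Medians over all genes were 0.01 and 0.02; the GBP and IRG GTPases lay at 0.13 and 1.38 and the G2/M genes at -0.19 and -0.60.

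Genes of the integrated stress response, which the factor ATF4 drives when amino acids are short or proteins misfold, had upward steps in both arms. Of 27 measured, 24 had an upward step in both arms and 1 a downward one, beside 7119 and 5946 of all 20076 genes. Only Cth was called, and 20 had an unadjusted p under 0.05 upward and 0 downward, beside 1466 and 1471 of all 20076 genes. By size 6 climbed (22.2%, beside 2.32% of all genes), and 16 were at a plateau (59.3%, beside 79.1%). The median step was 0.48, with 0.50 without and 0.42 with melatonin. Trib3, a pseudokinase and classical ATF4 target, stood at 2.45 and 3.36 and then at 3.69 and 4.29, with both 5 h arrays above both 3 h arrays (1.08, SE 0.10, limma adjusted p = 0.0505). Mthfd2, of mitochondrial folate metabolism, had steps of 0.68 and 0.74, the alanyl-tRNA synthetase Aars 0.56 and 0.55, and Atf4 itself 0.46 and 0.33. Asns, the asparagine synthetase, had steps of 0.70 and 0.43, Chac1, which degrades glutathione, 1.00 and 0.42, and Slc7a11, the cystine importer, 0.34 and 0.65. The member that went down was Ppp1r15a, the phosphatase subunit that ends the response (-0.51 and -0.18).

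To show what such promoters look like, windows before the start of 4 of these genes are printed with matches to TGATGNAAN in capitals, the letters of the C/EBP-ATF response element searched on both strands. The sequences are RefSeq's on build GRCm38.p6, 5′ to 3′ along the gene: chr2:119351018-119351086 (forward strand) for Chac1, chr3:50443623-50443709 (reverse strand) for Slc7a11, chr6:7693210-7693262 (reverse strand) for Asns, chr8:111033699-111033767 (forward strand) for Aars.
Chac1: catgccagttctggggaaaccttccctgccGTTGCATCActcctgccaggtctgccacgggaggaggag
Slc7a11: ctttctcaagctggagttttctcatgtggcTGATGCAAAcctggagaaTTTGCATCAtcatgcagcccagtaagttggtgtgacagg
Asns: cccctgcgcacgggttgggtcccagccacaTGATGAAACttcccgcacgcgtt
Aars: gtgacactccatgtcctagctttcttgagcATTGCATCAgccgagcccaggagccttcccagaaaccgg

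Of the 27 genes, 22 had a promoter in the table (250 bases before to 50 after the start), and 7 of these held the letters (31.8%), beside 364 of 11503 genes tested with a promoter (3.16%). Slc7a11 has 2 matches in opposite directions. A match is a description of the sequence only.

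Most cell cycle genes had downward steps. Of 30 genes of G2 phase and mitosis, 24 had a downward step in both arms and 0 an upward one. Of all 20076 genes, 5946 had a downward step in both arms and 7119 an upward one. None of the G2/M genes was called, and 9 had an unadjusted p under 0.05, all downward, beside 1471 downward of all 20076 genes. At a plateau were 18 of the 30 (60%), beside 79.1% of all genes. The median step of the list was -0.41, with -0.19 without and -0.60 with melatonin. Without the 5 h melatonin array the median was -0.07, and without the 5 h array of the other arm -0.71. Ccnb1, the mitotic cyclin, stood at 3.28 and 2.28 at 3 h and at 2.97 and 1.48 at 5 h. Nusap1, a spindle protein, went from 1.33 and 0.76 to 0.89 and -0.33, and Mki67, the proliferation antigen Ki-67, from 4.45 and 3.57 to 4.14 and 3.1. Mki67 was among the genes at a plateau. Of 30 genes of the G1/S transition and DNA replication, 22 had a downward step in both arms and 4 an upward one, and none was called. At an unadjusted p under 0.05 were 13 downward and 0 upward, beside 1471 and 1466 of all genes. At a plateau were 21 of these 30 (70%). The median step of the G1/S list was -0.41 without and -0.22 with melatonin, the reverse order of the G2/M genes. Rrm2, of ribonucleotide reductase, had steps of -0.93 and -0.40, and Mcm7, of the replicative helicase, -0.83 and -0.65. Of 14 housekeeping genes none was called (3 upward at an unadjusted p under 0.05), with steps between -0.19 and 0.32.

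Whether the arms converged depended on the genes. The step without melatonin correlated with that with melatonin at r = 0.269 (Spearman 0.375) across all genes, at 0.599 in the top tertile of genes by level and at 0.565 among raised or lowered genes. These are descriptions across genes on 4 arrays. The gap, here the log2 level with melatonin minus that without, had an SD over all genes of 0.51 at 0 h, 0.59 at 1 h, 0.73 at 3 h and 0.70 at 5 h. At 3 h 2298 genes had a gap of at least 1 log2 (11.4%) and at 5 h 2134 (10.6%). With the normexp background these were 999 and 783. Of all genes 54.8% had a smaller gap at 5 h. The test of a step difference between arms called 0 genes (limma with 1 residual degree of freedom, 2415 genes or 12% at an unadjusted p under 0.05, lowest adjusted p = 0.173). That 1 residual degree of freedom is the change of the gap from 0 h to 1 h, so the p-values measure no spread at 3 h or 5 h. Counts at an unadjusted p in this test are therefore no evidence that the steps differed.

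Most LPS-raised genes that were lower with melatonin had a smaller gap at 5 h. There were 353 raised genes with a mean gap of -1 log2 or below over 3 h and 5 h. The mean gap is uncorrelated with the gap's change, but the call of raised uses a spread to which that change adds. Of the 353 genes, 283 had a smaller gap at 5 h (80.2%), and the median gap went from -1.68 to -1.24. Their median step was 0.18 without and 0.64 with melatonin. Of 497 lowered genes that were higher with melatonin, 48.7% had a smaller gap at 5 h, and the median gap was 1.39 and then 1.38. The gap was smaller at 5 h in 16 of 25 raised genes that were higher with melatonin (64%) and in 16 of 37 lowered genes that were lower with it (43.2%). Over all 873 genes lower with melatonin by that mean gap it was smaller in 63%, and over the 1081 higher with it in 47.9%. The differences between these groups were not tested.

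**Figure D4:**
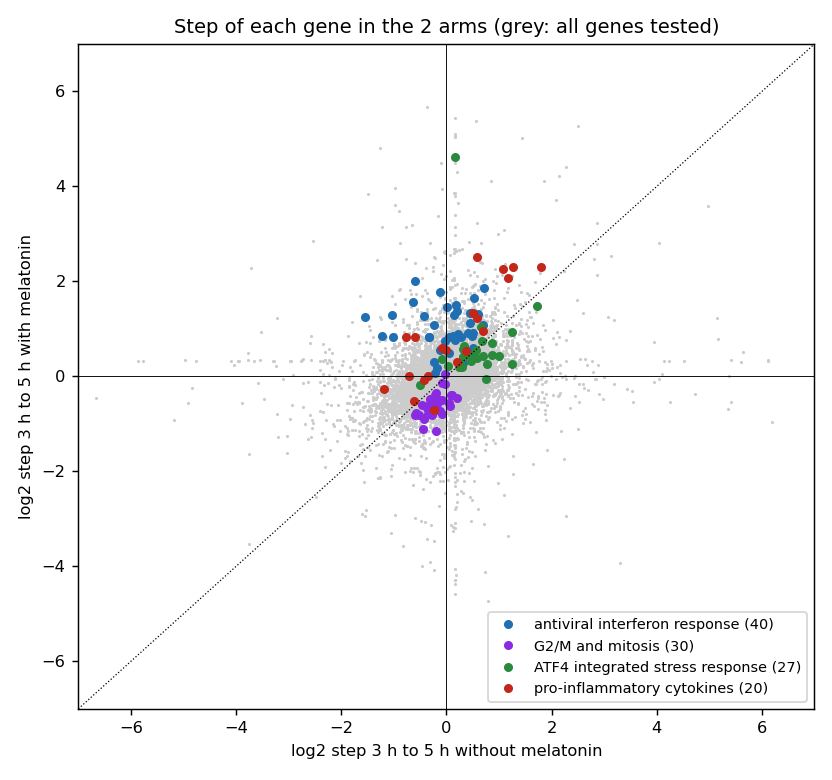
Log2 step from 3 h to 5 h with melatonin (y axis) against that without (x axis), 1 point per gene: grey for all 20076 genes tested, colours for 4 gene lists; the dotted line marks equal steps. Antiviral genes lie above the line in 38 of 40 cases, G2/M genes below it in 29 of 30, and ATF4 genes upward in both arms in 24 of 27. Of all 20076 genes, 11117 lie above the line and 7119 moved upward in both arms.

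Antiviral genes of the interferon response drew together, most of them by a larger upward step with melatonin and fewer by opposite moves. All 40 measured had an upward step with melatonin, whereas without melatonin 24 went up and 16 down. Such a pair of opposite signs occurred in 40% of the list and in 17% of all genes. Among the 32 lists the share ran from 0% to 40%. It was 36.8% in unfolded protein response chaperones and 30.8% in genes of the tricarboxylic acid cycle and respiratory chain. For the antiviral list, other values were as follows. The median step was 0.14 without and 0.87 with melatonin, and the median gap went from -1.69 at 3 h to -0.75 at 5 h, with a smaller gap in 38 of 40. None was called at the step (1 upward at an unadjusted p under 0.05). At the step difference none was called either, and 31 had an unadjusted p under 0.05 (limma adjusted p 0.173 or above). The spread in the test of the difference comes from 0 h and 1 h. Ifit2, an RNA-binding antiviral protein, stood at 3.70 and 0.32 at 3 h and at 3.11 and 2.33 at 5 h. The gap closed from -3.38 to -0.78, with a lower level without and a higher level with melatonin. Rsad2, viperin, stood at 7.12 and 4.74 and then at 6.10 and 6.04, so the arms met. Mx1, an antiviral dynamin-like GTPase, stood at 4.28 and 1.81 and then at 2.74 and 3.06, so the order of the arms turned. Cmpk2, a mitochondrial nucleotide kinase, had steps of -0.63 and 1.57, and Batf2, an AP-1-like factor, -0.83 and 1.15. Usp18, which restrains interferon signalling, had steps of 0.53 and 1.65, and Irf7, the factor that amplifies interferon production, 0.44 and 0.44.

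The guanylate-binding proteins and immunity-related GTPases, which attack vacuoles of intracellular microbes, had the widest difference in median step between arms among the lists plotted. Of 15 measured, 14 had a smaller gap at 5 h, with medians of -2.44 and -1.43, and the median step was 0.13 without and 1.38 with melatonin. None was called (0 at an unadjusted p under 0.05 for the step, 8 for the step difference). Gbp2 stood at 1.56 and -1.32 and then at 1.90 and 0.22, so the melatonin arm stayed lower. Igtp stood at 4.29 and 2.28 and then at 3.93 and 3.69. Several members, like some antiviral genes, are close paralogs, and cross-hybridisation between them was not tested.

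Windows of 5 of these promoters show the interferon-stimulated response element, searched as 2 copies of GAAA spaced by 2 bases on both strands and set in capitals (RefSeq, GRCm38.p6, 5′ to 3′ along the gene): chr12:26456533-26456602 (reverse strand) for Rsad2, chr19:34640755-34640843 (forward strand) for Ifit1, chr19:34583343-34583446 (forward strand) for Ifit3, chr4:156200845-156200926 (reverse strand) for Isg15, chr3:142620574-142620643 (forward strand) for Gbp2.
Rsad2: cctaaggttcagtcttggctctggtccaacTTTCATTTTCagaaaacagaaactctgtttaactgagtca
Ifit1: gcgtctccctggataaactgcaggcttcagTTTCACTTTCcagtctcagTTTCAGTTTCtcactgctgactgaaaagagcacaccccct
Ifit3: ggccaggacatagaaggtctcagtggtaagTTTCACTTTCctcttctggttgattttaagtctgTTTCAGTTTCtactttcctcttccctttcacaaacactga
Isg15: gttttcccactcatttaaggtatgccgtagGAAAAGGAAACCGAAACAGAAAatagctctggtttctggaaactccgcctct
Gbp2: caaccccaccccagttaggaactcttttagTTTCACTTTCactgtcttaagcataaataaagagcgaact

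These letters were in 15 of 30 antiviral genes with a promoter in the table (50%) and in 8 of 9 GBP and IRG genes (88.9%), beside 453 of 11503 genes tested (3.94%). In Isg15 3 matches overlap. For the printed genes, the gaps at 3 h and 5 h were -2.83 and -1.0 for Ifit1, -3.37 and -1.47 for Ifit3, and -1.17 and -0.73 for Isg15. The motif is known to bind ISGF3 and IRF factors, and binding was not measured here.

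Cytokines and chemokines drew together as well. Of the 20 cytokines, all were lower with melatonin at 3 h and 17 at 5 h, and 19 had a smaller gap at 5 h, with medians of -1.87 and -1.22. For Il6 the gap was -4.25 and then -3.21, so most of it remained. For Ccl2 it was -3.04 and -2.36, and for Lcn2 -2.44 and -0.81. Of 14 chemokines, 13 had a smaller gap at 5 h, with medians of -1.33 and -0.85, and all 14 were lower with melatonin at both times. Of 30 glycolysis and hypoxia genes 27 had a smaller gap, from a median of -0.31 to -0.16. The 14 housekeeping genes did so in 11 cases (78.6%), from -0.30 to -0.24, beside 54.8% of all genes.

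G2/M genes moved apart. Their median gap was -0.69 at 3 h and -1.05 at 5 h, and 28 of 30 had a wider gap at 5 h; 19 had an unadjusted p under 0.05 for the step difference and none was called (limma adjusted p 0.212 or above). Cenpf, a kinetochore protein, stood at 1.81 and 1.34 and then at 1.62 and 0.18, and Cdc20, which activates the anaphase-promoting complex, at 4.46 and 3.68 and then at 4.33 and 2.96. The arm without melatonin moved little in both. Among all genes above background on the 4 arrays, those whose gap widened most included Aatk, Zfp384, Cerkl and D8Ertd82e, in which the 5 h array without melatonin stood apart, and Scn2a, in which the 5 h melatonin array did. Aatk, for instance, was at -3.57 and -3.58 at 3 h and at -0.98 and -3.75 at 5 h. A further gene whose gap closed was the transcript C77563, at -0.93 and -3.58 and then -3.84 and -3.55.

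**Figure D5:**
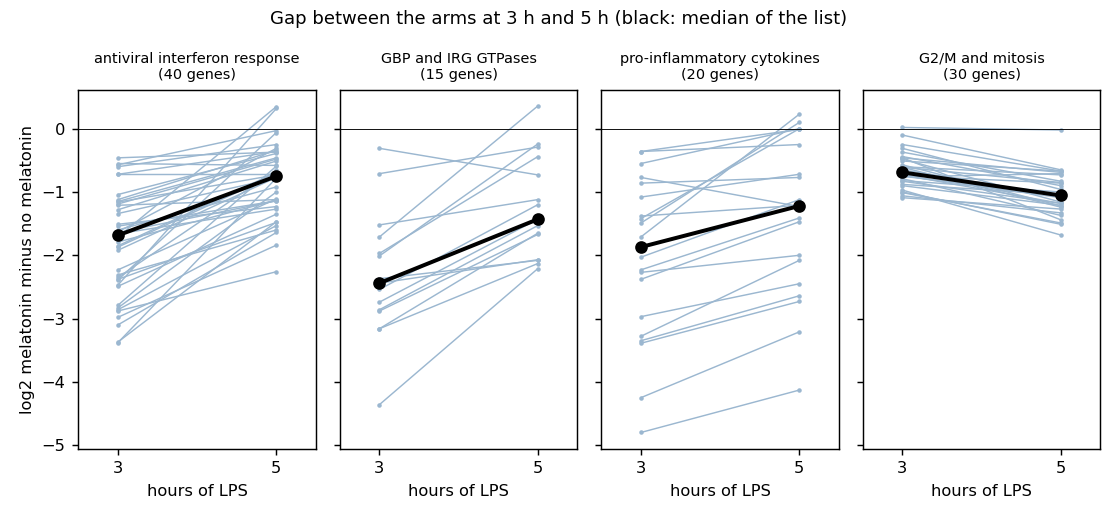
Gap between the arms, log2 with melatonin minus without (y axis), at 3 h and 5 h of LPS (x axis) for each member of 4 gene lists (thin lines) and the list's median (black). The median went from -1.69 to -0.75 in antiviral genes, from -2.44 to -1.43 in GBP and IRG GTPases and from -1.87 to -1.22 in cytokines, and from -0.69 to -1.05 in G2/M genes.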

How the data were processed

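Total RNA of 8 RAW264.7 cultures was hybridised to 8 1-colour arrays. Per the file headers, the intensity values come from Agilent Feature Extraction 12.0.3.1 as processed signals, background-subtracted and detrended, with flags for outlier, saturated and well-above-background spots; mean and background intensity, deposited uncorrected, served the normexp setting (offset 50). A deposited log2 table with the same sorted values on every array served another. Here signals were put on log2, less each array's 75th percentile (659.1 to 846.1). Control and outlier spots were dropped and replicate spots averaged. Probes entered if 2 or more of the 8 arrays had them well above background, the brightest per gene (30417 probes, 20076 genes, names updated through RefSeq). Between 46.96% and 52.98% of probes were above background, and the number of arrays limits the precision.

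limma 3.58.1 in R 4.3.3 (lmFit, eBayes with an intensity trend, 3 residual degrees of freedom) gave 2-sided p-values with Benjamini-Hochberg adjustment over all genes. A run on simulated arrays with independent noise checked the median error of known steps. It cannot speak for the p-values of these arrays, which lack replicate cultures. The step difference model gave each of 3 h and 5 h its own melatonin term, and 0 h and 1 h a shared one. "At least" folds compare the brighter time with the lowest signal well above background on each array of the dimmer time. Probe coordinates are mm9, per the file headers. The genes and 32 lists were chosen with earlier results of these data known. Named genes are the largest calls, a panel of 26, the 6 largest gap changes each way and the 6 most raised or lowered per class; list examples and the rule of 0.5 log2 in both arms were chosen after seeing values. Some genes that the rule names are not reported here. No sample was dropped or imputed. Alternatives were quantile, normexp, the deposited table, other filters, a common floor, the mean of probes, no trend, only 4 arrays, the treatment-field times and leaving out each array.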

Additional observations from a re-analysis of the deposited data

Results flagged for a closer look

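6 genes are listed because their step went in opposite directions in the arms by at least 0.5 log2 each, down without and up with melatonin. The step with melatonin minus that without was 2.79 for Mx1, 2.61 for Ifit2, 2.33 for Rsad2, 2.21 for Cmpk2, 1.98 for Batf2 and 1.35 for Egr1, an immediate early zinc finger factor. Each arm had 1 array per time. The limma test of the difference, with 1 residual degree of freedom, called none of them.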

How the results depend on the processing

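No paired analysis was possible because each condition has 1 array and so replicate numbers pair nothing; the arm is a term of the model, so 3 h and 5 h were compared within arms. Genes called down at the step numbered 26 with quantile normalization and 24 with the deposited table. Up and down calls were 0 and 2 with no filter and with no intensity trend, 0 and 1 with the common floor, 124 and 124 on the 4 arrays at 3 h and 5 h alone, and 0 and 0 with the treatment-field times. Leaving out each array gave 0 to 6 up and 1 to 15 down, with 2 residual degrees of freedom. Under the treatment-field times the steps of Fos and Rarb turned to -2.14 and -1.77 and 0 raised and 0 lowered genes were at a plateau. An interval of 0.5 log2 left 162 and 92 at a plateau. Leaving out each array gave 435 to 843 raised and 483 to 1075 lowered genes at a plateau. Genes with a gap of at least 1 log2 at 3 h and 5 h numbered 999 and 783 with normexp, on the same genes. With no filter, where more dim genes are tested, they numbered 5053 and 4574. With probes above background on all 8 arrays, where fewer dim genes are tested, they numbered 1229 and 1073. In the other cases the cause was not tested. The count of antiviral genes with a smaller gap was 37 to 39, and of G2/M genes with a wider gap 28 to 29, under the filters, scalings and probe rules run. The step difference called 0 genes in each of those and with no trend, and its leave-out fits were not run because no residual degrees of freedom remain. Dim probes limit the values near background.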

Other observations

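Genes of sterol synthesis had small upward steps of like size in both arms. Of 29 genes of cholesterol and fatty acid synthesis, 0 were called by limma and 28 were at a plateau (96.6%, beside 79.1% of all genes). In both arms 21 had an upward step and 5 a downward one, beside 7119 and 5946 of all 20076 genes. At an unadjusted p under 0.05 were 13 upward and 1 downward, beside 1466 and 1471 of all genes. The median step was 0.21 without and 0.20 with melatonin, beside 0.01 and 0.02 over all genes. By size 4 climbed in both arms (13.8%, beside 2.32% of all genes): Mvd, a decarboxylase of the mevalonate pathway, with steps of 0.71 and 0.54, Lss, which forms lanosterol, with 0.62 and 0.59, Fdft1, squalene synthase, with 0.56 and 0.54, and Dhcr7, which makes the last step to cholesterol, with 0.71 and 0.53. These 4 were named after their values were seen, and their limma adjusted p-values lay between 0.0811 and 0.322. The list's median step over both arms was 0.21, 0.16 with quantile normalization and with the deposited table, and 0.05 with the times of the treatment field. The 12 cytosolic heat shock chaperones had a median step of 0.14 without and -0.10 with melatonin. None of the 12 was called (2 had an unadjusted p under 0.05 upward), and the smallest limma adjusted p for a difference between the arms was 0.227. Hspa1b, a stress-inducible HSP70, had steps of 0.11 and -0.95 and was also named after its values were seen.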
